A study of Mus musculus with 4 samples.

Results

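Creatine kinases and the genes that supply creatine were described here as a group of 7 genes, out of 27179 genes in the expression table. The members were taken by name, as the rows of Ckm, Ckb, Ckmt1, Ckmt2, Gamt, Gatm and Slc6a8, and the list was chosen by the RPKM values of Ckm in this same contrast between the genotypes, together with its family and pathway. The members' values are therefore given as a description and support nothing about the genotype, and no test of them is read as a result. Creatine kinases move a phosphate between ATP and creatine, so that phosphocreatine serves as a fast reserve and as a carrier of high-energy phosphate inside the cell. Creatine is either made, by Gatm and then Gamt, or taken up from the blood by the transporter Slc6a8. The system is best known from muscle and brain, where energy demand changes quickly.

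RNA was sequenced from bone marrow cells of a mouse model of acute myeloid leukemia (AML), sorted as leukemia stem cells (LSCs), the cells held to sustain the disease. The sort kept cells with a yellow fluorescent protein (YFP), the myeloid integrin Mac-1 and the receptor c-Kit. There were 2 B7-H4-null samples and 2 wildtype samples, all on the C57BL/6 strain, and the genotype is the only labelled difference between the groups. B7-H4, encoded by Vtcn1, is a B7 family ligand that restrains T cells. The labels give neither the leukemia-driving gene nor the age of the mice, nor whether the replicates came from separate animals, so the spread between replicates may be technical. Bulk values were measured, so fewer cells of a type and less RNA per cell cannot be told apart.

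The totals behind the scaling lay between 9419425 and 10814448 reads per library, and 11814 to 11871 genes reached 1 RPKM (reads scaled to gene length and to the total of the library). Pearson’s r of log2(RPKM + 1) between libraries was 0.909 to 0.957 across 12107 genes, which are not independent replicates. Itgam and Itgb2, the chains of Mac-1, and Kit, which encodes c-Kit, were read in every library, at 59.9 to 114 RPKM, 123 to 213 RPKM and 7.19 to 24.01 RPKM. Vtcn1 had 1 and 1 reads in the B7-H4-null libraries, against 0 and 0 in wildtype, too few to check the genotype.

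Ckm, the muscle-type cytosolic creatine kinase, had the highest deposited value of the creatine kinases in all 4 libraries, and Ckb, the brain-type enzyme, came next. A gene on the other strand shares exons with Ckm, and this order turns in B7-H4-null replicate 1 if all reads that could be shared are taken from Ckm. These 2 genes also stood higher in both B7-H4-null libraries than in both wildtype libraries, whereas the mitochondrial kinases were close to 0 and the synthesis genes overlapped between genotypes. The promoters of both cytosolic kinases, the 250 bases before the start of each gene, are shown because these are the members whose levels differed most. They come from RefSeq on GRCm38.p6, 5′ to 3′ on the strand of the gene. The Ckm promoter lies on the plus strand at chr7:19410844-19411093 and the Ckb promoter on the minus strand at chr12:111672339-111672588. Capitals mark matches on either strand to the motifs named after the sequences.
Ckm: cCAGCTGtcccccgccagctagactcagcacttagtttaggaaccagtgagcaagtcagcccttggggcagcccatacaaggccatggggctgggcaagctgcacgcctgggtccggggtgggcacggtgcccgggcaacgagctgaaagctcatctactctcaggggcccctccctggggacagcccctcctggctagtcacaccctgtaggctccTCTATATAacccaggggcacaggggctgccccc
Ckb: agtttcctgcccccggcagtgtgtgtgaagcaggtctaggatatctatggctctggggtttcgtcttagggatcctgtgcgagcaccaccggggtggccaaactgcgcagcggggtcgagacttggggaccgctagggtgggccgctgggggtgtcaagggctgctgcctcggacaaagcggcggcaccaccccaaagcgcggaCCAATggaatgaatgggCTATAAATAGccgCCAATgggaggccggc

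In the Ckm promoter a pair of overlapping TATA-like matches (TATANA) lay 33 to 26 bases before the start, and an E-box match (CANNTG), the letters bound by basic helix-loop-helix factors such as MyoD, lay 249 to 244 bases before it. In the Ckb promoter the letters CTATAAATAG lay 29 to 20 bases before the start. They match a MEF2-like pattern, searched here as CTA and TAG with any 4 bases allowed between them, and hold a TATA-like match inside it. The Ckb promoter also held CCAAT at 46 to 42 and at 16 to 12 bases before the start. Of 27025 promoters of this length, taken once per gene, 23.4% held a TATA-like match, 34.5% CCAAT, 66.0% an E-box match and 3.23% the MEF2-like pattern. A GC box (GGGCGG, in 32.9% of promoters) and an AP-1 match (TGANTCA, in 6.87%) were searched as well and were found in neither. These matches describe letters and are not evidence of binding. The 2 promoters had GC contents of 64.8% for Ckm and 62.8% for Ckb. Of the other members, Ckmt1, Ckmt2, Gamt and Gatm were in the promoter table and Slc6a8 is named only.

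Ckm (gene ID 12715, chromosome 7, 19411094 to 19421583, GRCm38.p6) stood at 24.2 and 24.5 RPKM in B7-H4-null, against 4.32 and 6.55 RPKM in wildtype. The genotypes did not overlap, and the lower B7-H4-null library was 3.70 times the higher wildtype library. The means were 24.4 ± 0.192 RPKM in B7-H4-null and 5.43 ± 1.57 RPKM in wildtype (SD, n = 2 each), 4.49 times as high in B7-H4-null. On the log2(RPKM + 1) scale the difference was 2.002 ± 0.273 (SE). The reads behind these values were 323 and 375 in B7-H4-null and 62 and 92 in wildtype, so the group ratio of reads per total, 4.50, had an exact 95% interval of 3.77 to 5.39 for counting error alone. Among all genes of a library, Ckm lay at the 86.1 and 85.4 percentile in B7-H4-null and at the 65.7 and 69.6 percentile in wildtype. The spread between the B7-H4-null libraries was small, at 1.011-fold, while the wildtype libraries differed 1.52-fold.

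**Figure D1:**
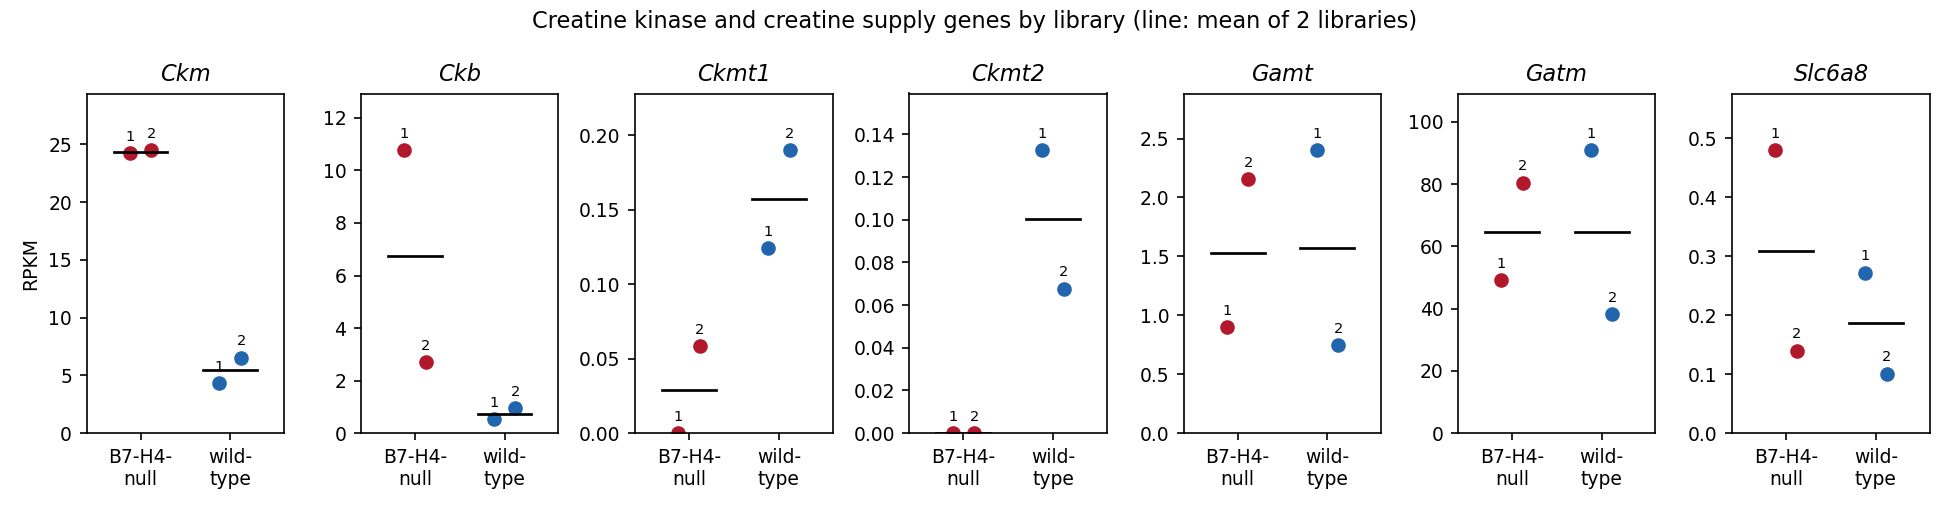
RPKM of the 7 members in each library (points, numbered by replicate) with the mean of each genotype (line), B7-H4-null left of wildtype, each panel on its own axis from 0. Ckm and Ckb lie higher in both B7-H4-null libraries, Gamt and Gatm overlap between genotypes, and Ckmt1, Ckmt2 and Slc6a8 stay below 1 RPKM.

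A long noncoding gene on the opposite strand, A930016O22Rik (gene ID 100503495, chromosome 7, 19417466 to 19421417), overlaps the end of Ckm. Of the 1415 exon bases of Ckm, 451 (31.9%) lie in exons of the antisense gene, spread over 3 of the 8 Ckm exons. The library protocol does not mark strand, so reads from the shared exons cannot be assigned to one gene. A930016O22Rik stood at 20.1 and 20.4 RPKM in B7-H4-null, against 4.16 and 5.08 RPKM in wildtype, a log2 difference of 1.93 ± 0.245 (SE). Of all 12106 other tested genes it had the pattern nearest to that of Ckm over the 4 libraries. Its reads were 229 and 267 in B7-H4-null and 51 and 61 in wildtype. Even if each of these had also been counted for Ckm, 94 and 108 Ckm reads in B7-H4-null and 11 and 31 in wildtype would remain. These reads alone are worth 7.05 and 7.06 RPKM of Ckm in B7-H4-null, against 0.766 and 2.21 RPKM in wildtype, which is the least the values allow for reads counted for Ckm alone. They were scaled to all 1415 exon bases of Ckm, and a length without the 451 shared bases would give higher values. In B7-H4-null replicate 1 this least value lies below the 10.8 RPKM of Ckb, and in the other 3 libraries it lies above Ckb. Which strand the reads came from is not recorded, and the part of the antisense gene in the Ckm difference was not tested.

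**Figure D2:**
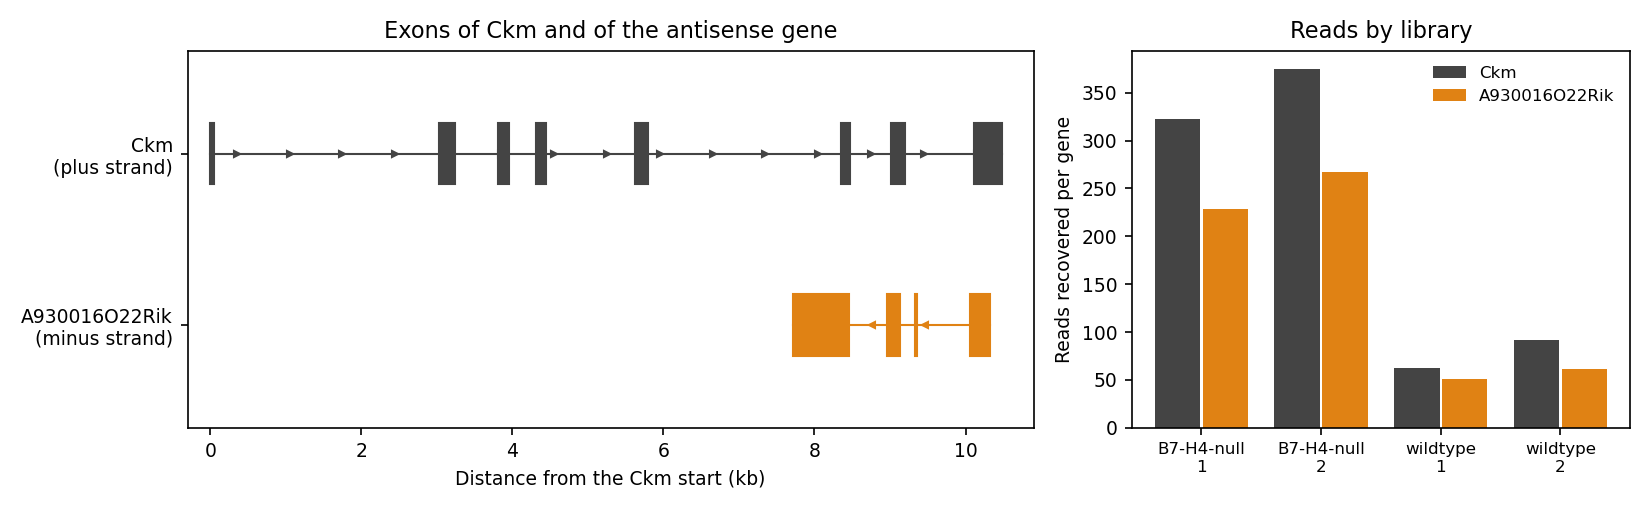
Left, exons (boxes) of Ckm on the plus strand and of A930016O22Rik on the minus strand against distance from the Ckm start in kilobases. Right, reads recovered for each gene in each library, B7-H4-null left of wildtype, with both genes higher in each B7-H4-null library and Ckm above the antisense gene in all 4 libraries.

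Of the nearest protein-coding genes on either side of Ckm, one overlapped between genotypes and the other was lower in B7-H4-null without overlap. Klc3, a kinesin light chain gene before Ckm, had 11.2 and 13.7 RPKM in B7-H4-null, against 12.05 and 8.58 RPKM in wildtype, and did not pass the test (log2 difference 0.26, adjusted p = 0.737, limma). Mark4, a microtubule affinity kinase gene after Ckm, had 10.7 and 14.4 RPKM in B7-H4-null, against 14.97 and 21.8 RPKM in wildtype (log2 difference −0.50, adjusted p = 0.552, limma). The nearer gene before Ckm, Gm38954, has no row among the genes analysed here. Around the other members, 0 of 11 tested neighbours passed the limma test, beside 0.0991% of all tested genes. Their log2 differences were −1.84 to 0.38.

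Ckb (gene ID 12709, chromosome 12, 111669355 to 111672338) stood at 10.8 and 2.69 RPKM in B7-H4-null, against 0.534 and 0.954 RPKM in wildtype. Both B7-H4-null libraries lay above both wildtype libraries, the closest pair being 2.82-fold apart. The B7-H4-null libraries themselves differed 4.005-fold, replicate 1 being the higher. The means were 6.73 ± 5.72 RPKM in B7-H4-null and 0.744 ± 0.297 RPKM in wildtype (SD, n = 2 each), and the log2 difference was 1.93 ± 0.531 (SE). Ckb entered the tested genes only because both B7-H4-null libraries reached 1 RPKM while neither wildtype library did, so it had to differ. The log2 difference was 1.09 when B7-H4-null replicate 1 was left out and 2.77 when replicate 2 was. The reads were 150 and 43 in B7-H4-null and 8 and 14 in wildtype, a ratio per total of 8.71 with an exact 95% counting interval of 5.59 to 14.2.

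The mitochondrial creatine kinases, which sit between the mitochondrial membranes and pass phosphate from ATP made there to creatine, were barely read. Ckmt1 (gene ID 12716, chromosome 2, 121357773 to 121363737), the ubiquitous form, had 0 and 1 reads in B7-H4-null, against 2 and 3 reads in wildtype. This is 0 and 0.0582 RPKM in B7-H4-null, against 0.124 and 0.19 RPKM in wildtype, and the ratio of reads per total, 0.198, had an interval of 0.0042 to 1.77. That interval includes equality, so no difference was detectable at this depth. Ckmt1 shares 10 exon bases with the opposite-strand gene Strc. Strc stood at 0 and 0 RPKM in B7-H4-null, against 0.736 and 1.10 RPKM in wildtype, and its part in the Ckmt1 reads was not tested. Ckmt2 (gene ID 76722, chromosome 13, 91853386 to 91876923), the sarcomeric form of muscle, had 0 and 0 reads in B7-H4-null, against 2 and 1 reads in wildtype. A floor of 3 reads over a group corresponds to 0.0998 RPKM for this gene in B7-H4-null and 0.101 RPKM in wildtype, so no fold is given. It shares 84 exon bases with the opposite-strand gene 1700119I11Rik.

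Gatm (gene ID 67092, chromosome 2, 122594473 to 122611277) makes guanidinoacetate from arginine and glycine, the first step of creatine synthesis, and had more RNA than any other member in every library. It stood at 49.1 and 80.4 RPKM in B7-H4-null, against 90.9 and 38.2 RPKM in wildtype. The genotypes overlapped, with the highest and the lowest value both in wildtype libraries. The means were 64.7 ± 22.2 RPKM in B7-H4-null and 64.6 ± 37.3 RPKM in wildtype (SD, n = 2 each), and the log2 difference was 0.09 ± 0.453 (SE). The sign of this difference turned with single libraries, to −0.53 without wildtype replicate 2, −0.26 without B7-H4-null replicate 2, 0.70 without wildtype replicate 1 and 0.44 without B7-H4-null replicate 1. The 1089 and 2049 reads in B7-H4-null and 2174 and 895 reads in wildtype are many, so counting error is small beside the spread between replicates.

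Gamt (gene ID 14431, chromosome 10, 80258151 to 80261025) methylates guanidinoacetate to creatine with S-adenosylmethionine and was far lower. It stood at 0.9 and 2.15 RPKM in B7-H4-null, against 2.40 and 0.746 RPKM in wildtype, and followed the same order of libraries as Gatm. The means were 1.53 ± 0.888 RPKM in B7-H4-null and 1.57 ± 1.17 RPKM in wildtype (SD, n = 2 each), with a log2 difference of 0.01 ± 0.421 (SE). That difference was 0.37 without B7-H4-null replicate 1, −0.36 without B7-H4-null replicate 2, 0.49 without wildtype replicate 1 and −0.47 without wildtype replicate 2. Both genotypes had 30 Gamt reads in all, a ratio per total of 0.992 with an interval of 0.578 to 1.704. In RPKM, Gatm exceeded Gamt 54.5-fold and 37.3-fold in B7-H4-null and 37.9-fold and 51.2-fold in wildtype.

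Slc6a8 (gene ID 102857, chromosome X, 73673133 to 73682502), the sodium- and chloride-dependent creatine transporter, stayed below 1 RPKM in all 4 libraries. It had 0.48 and 0.139 RPKM in B7-H4-null, against 0.272 and 0.101 RPKM in wildtype, from 18 and 6 reads in B7-H4-null and 11 and 4 reads in wildtype. The genotypes overlapped, and the ratio of reads per total was 1.59 with an interval of 0.799 to 3.25. In both genotypes RNA of Gatm was thus far more abundant per length than RNA of the creatine transporter.

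By mean RPKM the order was Gatm, Ckm, Ckb, Gamt, Slc6a8, Ckmt1 and Ckmt2 in B7-H4-null, and in wildtype the same except that Gamt stood above Ckb. In B7-H4-null, the ranges of Ckb and Gamt did not overlap, with 2.69 RPKM for Ckb and 2.15 RPKM for Gamt as the closest pair. In wildtype, Gamt at 0.746 RPKM in replicate 2 lay below Ckb at 0.954 RPKM in the same library, so these neighbours did not differ beyond their spread. Slc6a8 and Ckmt1, and Ckmt1 and Ckmt2, also overlapped in wildtype. Of the 4 creatine kinase genes together, the summed level was 35.01 and 27.3 RPKM in B7-H4-null, against 5.11 and 7.76 RPKM in wildtype. This is 31.1 ± 5.48 RPKM in B7-H4-null and 6.43 ± 1.87 RPKM in wildtype (SD, n = 2 each), 4.84 times as high in B7-H4-null. Ckm made up 69.2% and 89.9% of the sum in B7-H4-null, against 84.5% and 84.4% in wildtype. Ckb made up 30.8% and 9.87% of it in B7-H4-null, against 10.4% and 12.3% in wildtype. The mean Ckm share, B7-H4-null minus wildtype, differed by −4.89 percentage points. It was 5.46 points when B7-H4-null replicate 1 was left out and −15.2 points when replicate 2 was. The direction of the difference in isoform share thus rested on 1 library. A Ckm share was also taken with only the reads beyond those of the antisense gene, scaled to the full Ckm length. It would be 39.6% and 71.97% in B7-H4-null and 49.2% and 64.5% in wildtype, and higher with a shorter length.

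Of the 7 members, 4 passed the filter on low values (1 RPKM in at least 2 libraries) and Ckmt1, Ckmt2 and Slc6a8 did not. Past an adjusted p of 0.05 in limma were 0 of these 4, beside 0.0991% of all tested genes. Ckm and Ckb were 2 of 4 without overlap and higher in B7-H4-null, beside 16% of all tested genes, and both were apart by more than 2-fold, beside 1.67% of them. Since the list was made with this contrast known, nothing is read from these counts.

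**Figure D3:**
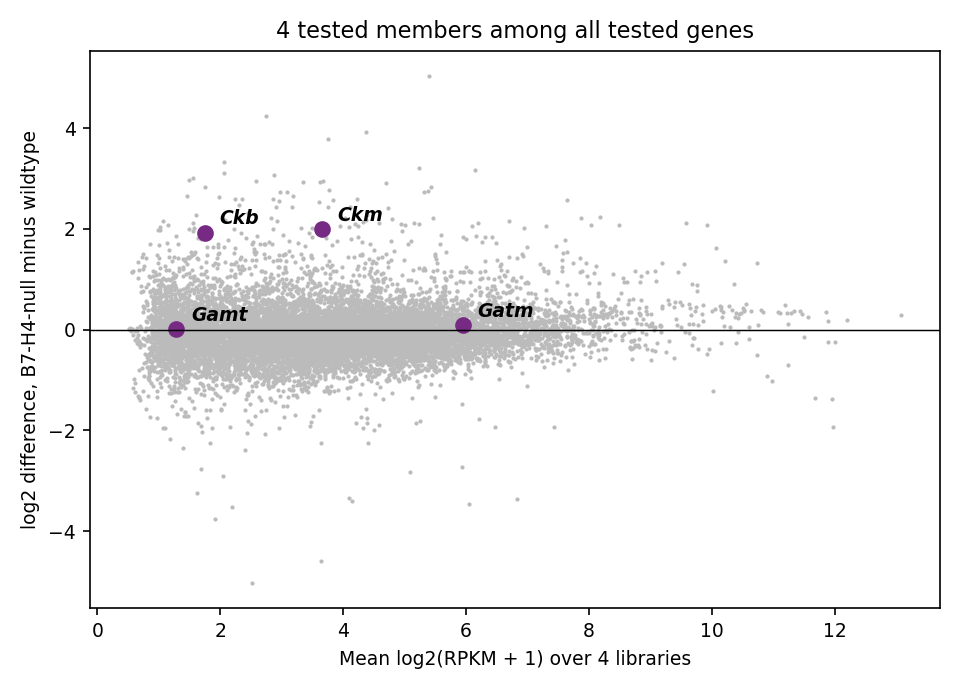
Log2 difference on the log2(RPKM + 1) scale, B7-H4-null minus wildtype, against the mean log2(RPKM + 1) of the 4 libraries for 12107 tested genes (grey) and the 4 tested members (purple). Ckm and Ckb lie at 2.002 and 1.93, and Gamt and Gatm lie at 0.01 and 0.09.

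Ckm and Ckb were among the nearer genes to each other in pattern, but not among the nearest. The likeness of genes was measured as the Euclidean distance between log2(RPKM + 1) values centred on the gene's own mean, over the 4 libraries, where 0 is an identical pattern. Ckm and Ckb were 1.202 apart. Ckb ranked 261 of 12106 among the genes nearest to Ckm, and Ckm ranked 170 among those nearest to Ckb. Gamt and Gatm ranked 7800 and 8052 from Ckm. After its antisense gene, the genes nearest to Ckm were Ednra, a receptor for endothelin, at a distance of 0.25, Satb1, a chromatin organiser, at 0.274, and Tfpi, an inhibitor of coagulation, at 0.335. Satb1 stood at 10.1 and 9.25 RPKM in B7-H4-null, against 1.597 and 2.88 RPKM in wildtype. Nearest to Ckb were the blood stem and progenitor factor Gata2 at 0.269, the early response receptor Nr4a1 at 0.301 and the NF-kB regulator Nfkbiz at 0.432. Nr4a1 stood at 101.6 and 24.2 RPKM in B7-H4-null, against 11.9 and 16.2 RPKM in wildtype, so like Ckb it was far higher in B7-H4-null replicate 1 than in replicate 2.

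Gatm and Gamt were near each other, at a distance of 0.207. Gamt was the fourth nearest of 12106 genes to Gatm, and Gatm the eleventh nearest to Gamt. Rmi2, a genome stability factor, was nearest to Gatm at 0.0719, and the cell cycle gene Cdca7 followed at 0.0848. Cdca7 stood at 27.7 and 44.0 RPKM in B7-H4-null, against 52.6 and 22.5 RPKM in wildtype. The named genes nearest to Gamt were Cdc25a, a phosphatase that drives the cell cycle, at 0.145, the galactosyltransferase gene B3galt6 at 0.154 and the replication helicase subunit Mcm2 at 0.156. Mcm2 stood at 60.1 and 101.5 RPKM in B7-H4-null, against 102.9 and 61.0 RPKM in wildtype. The Gatm and Gamt pattern thus set B7-H4-null replicate 2 and wildtype replicate 1 above the other library of each genotype. These distances cover 4 libraries only and say nothing of shared control.

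**Figure D4:**
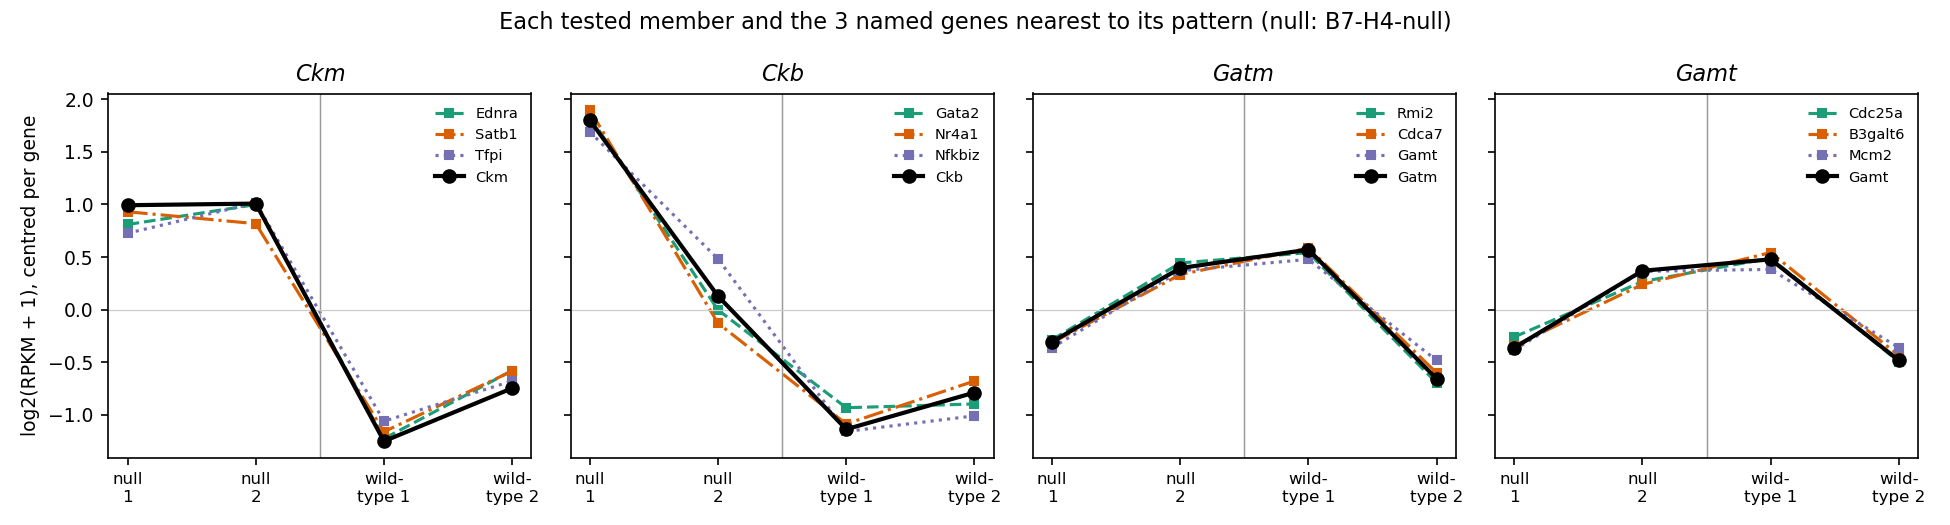
Centred log2(RPKM + 1) in each library, B7-H4-null left of wildtype, for each tested member (black) and the 3 named genes nearest to it in pattern (coloured). Ckm is high in both B7-H4-null libraries, Ckb mainly in B7-H4-null replicate 1, and Gatm and Gamt are higher in B7-H4-null replicate 2 and wildtype replicate 1.

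The genes around creatine metabolism were taken from 7 lists, with 54 of 89 genes tested. Of these, 0 passed an adjusted p of 0.05 in limma, where 0.0991% of all tested genes did, and limma's voom on recovered reads also called 0, where it called 0.132% of all tested genes. At an unadjusted p under 0.05 (limma) there were 7 higher and 3 lower in B7-H4-null, beside 612 and 872 of all 12107 tested genes. The smallest adjusted p was 0.295. Without overlap between genotypes were 20 higher, beside 16% of all tested genes, and 12 lower, beside 28%. Over all tested genes the log2 difference had a median of −0.09.

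Arginine and glycine are the substrates of Gatm. Of 9 tested genes that supply them, 5 were higher without overlap in B7-H4-null and 0 lower, beside 16% and 28% of all tested genes. The median log2 difference of the list was 0.49. Ass1, which makes argininosuccinate on the way to arginine, stood at 1.89 and 6.41 RPKM in B7-H4-null, against 0.544 and 0.926 RPKM in wildtype. It reached 1 RPKM in the B7-H4-null libraries alone, so it had to differ once it passed the filter, and it is 1 of the 5. Slc3a2, the heavy chain of amino acid transporters, stood at 67.9 and 81.0 RPKM in B7-H4-null, against 48.0 and 39.1 RPKM in wildtype (adjusted p = 0.334). Shmt2 and Shmt1, which interconvert serine and glycine, had log2 differences of 0.50 and 0.49 (adjusted p = 0.568 and 0.581). Of 5 tested genes of other uses of arginine, 3 were higher without overlap, beside 16% of all tested genes, with a median of 0.47. Odc1, which makes putrescine from ornithine, stood at 223 and 86.4 RPKM in B7-H4-null, against 59.2 and 28.4 RPKM in wildtype (adjusted p = 0.319). Azin2, Oat and Prmt1 had log2 differences of 0.58, 0.47 and 0.35 (adjusted p = 0.571, 0.578 and 0.682).

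Gamt draws its methyl group from the S-adenosylmethionine cycle. Of 11 tested genes of this cycle, 5 were higher and 2 lower without overlap, beside 16% and 28% of all tested genes. The median log2 difference of the list was 0.12. Mat2a, which makes S-adenosylmethionine, stood at 136 and 70.7 RPKM in B7-H4-null, against 65.4 and 28.6 RPKM in wildtype (adjusted p = 0.394, limma). Pemt, another user of the methyl donor, stood at 7.64 and 9.20 RPKM in B7-H4-null, against 4.61 and 4.35 RPKM in wildtype (adjusted p = 0.328). Ahcy and Gnmt had log2 differences of 0.41 and −0.35 (adjusted p = 0.605 and 0.624).

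Other kinases also pass phosphate between nucleotides. Of 13 tested adenylate and nucleoside diphosphate kinases and their relatives, 3 were higher and 3 lower without overlap, beside 16% and 28% of all tested genes. The median log2 difference of the list was −0.02. That median was 0.08 under median-ratio scaling, −0.07 under quantile normalization, 0.35 without B7-H4-null replicate 1 and 0.04 without wildtype replicate 1. Ak3, a mitochondrial adenylate kinase, stood at 7.99 and 10.8 RPKM in B7-H4-null, against 16.2 and 17.6 RPKM in wildtype (adjusted p = 0.329, limma). Nme4, a mitochondrial nucleoside diphosphate kinase, stood at 57.9 and 66.4 RPKM in B7-H4-null, against 39.0 and 34.1 RPKM in wildtype (adjusted p = 0.329). Nme6 and Ak1 had log2 differences of 0.56 and −0.54 (adjusted p = 0.528 and 0.575).

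AMPK senses AMP and ADP, and 4 of its 5 tested subunit genes were lower without overlap in B7-H4-null, beside 28% of all tested genes. The subunit genes had a median log2 difference of −0.29, beside −0.09 over all tested genes. Prkab1, Prkag1, Prkaa1 and Prkab2 had log2 differences of −0.45, −0.44, −0.29 and −0.26 (adjusted p = 0.516, 0.542, 0.672 and 0.736, limma). Of 8 tested genes that carry nucleotides and phosphate across the mitochondrial membrane, 4 were higher and 1 lower without overlap, beside 16% and 28% of all tested genes. The median of this list was 0.21, and −0.01 without B7-H4-null replicate 2. Slc25a4, the ADP/ATP carrier of heart and muscle, stood at 96.6 and 139.8 RPKM in B7-H4-null, against 51.2 and 62.1 RPKM in wildtype (adjusted p = 0.295). Slc25a24, an ATP-magnesium and phosphate carrier, stood at 6.75 and 7.71 RPKM in B7-H4-null, against 11.7 and 13.5 RPKM in wildtype (adjusted p = 0.334). Slc25a5 and Slc25a3 had log2 differences of 0.42 and 0.40 (adjusted p = 0.581 and 0.592). Of 19 relatives of Slc6a8, 16 stayed below 1 RPKM in all libraries. Slc6a6, the taurine transporter, stood at 12.6 and 20.9 RPKM in B7-H4-null, against 25.4 and 36.6 RPKM in wildtype (adjusted p = 0.370). Slc6a13 and Slc6a12 had log2 differences of −0.28 and −0.30 (adjusted p = 0.688 and 0.808).

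Because Ckm is a muscle gene, 26 skeletal muscle markers were read beside it. Of these, 6 were at 0 in every library (Myh2, Myl1, Pvalb, Mb, Myod1 and Myog), and 15 with these stayed below 1 RPKM in all libraries. In limma 0 of 8 tested were called, beside 0.0991% of all tested genes. Without overlap 0 were higher and 1 lower, beside 16% and 28% of all tested genes. The median log2 difference of the list was 0.15. Their summed level was 71.4 and 50.7 RPKM in B7-H4-null, against 53.9 and 48.3 RPKM in wildtype. B7-H4-null replicate 1 was the highest of the 4 libraries. Most of the sum came from Eno3 and Tnnt1. Eno3 stood at 26.4 and 11.1 RPKM in B7-H4-null, against 15.4 and 16.3 RPKM in wildtype, and Tnnt1 at 13.98 and 19.9 RPKM in B7-H4-null, against 16.6 and 13.04 RPKM in wildtype. Tnnc2, fast troponin C, named after its values were seen, stood at 9.80 and 0.534 RPKM in B7-H4-null, against 1.99 and 0.726 RPKM in wildtype. Acta1, skeletal actin, stood at 0.815 and 0.903 RPKM in B7-H4-null, against 1.93 and 0.843 RPKM in wildtype. Of 9 cardiac markers, Myh6 and Myl7 were at 0, and the summed level was 17.2 and 8.07 RPKM in B7-H4-null, against 4.61 and 2.63 RPKM in wildtype. Tnni3 made most of that sum, with 16.0 and 7.29 RPKM in B7-H4-null, against 3.35 and 2.08 RPKM in wildtype (adjusted p = 0.231, limma). The part of the muscle markers in the Ckm result was not tested. Of 8 neural and glial markers, Snap25 was at 0, and the summed level was 11.5 and 11.4 RPKM in B7-H4-null, against 14.5 and 16.3 RPKM in wildtype.

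**Figure D5:**
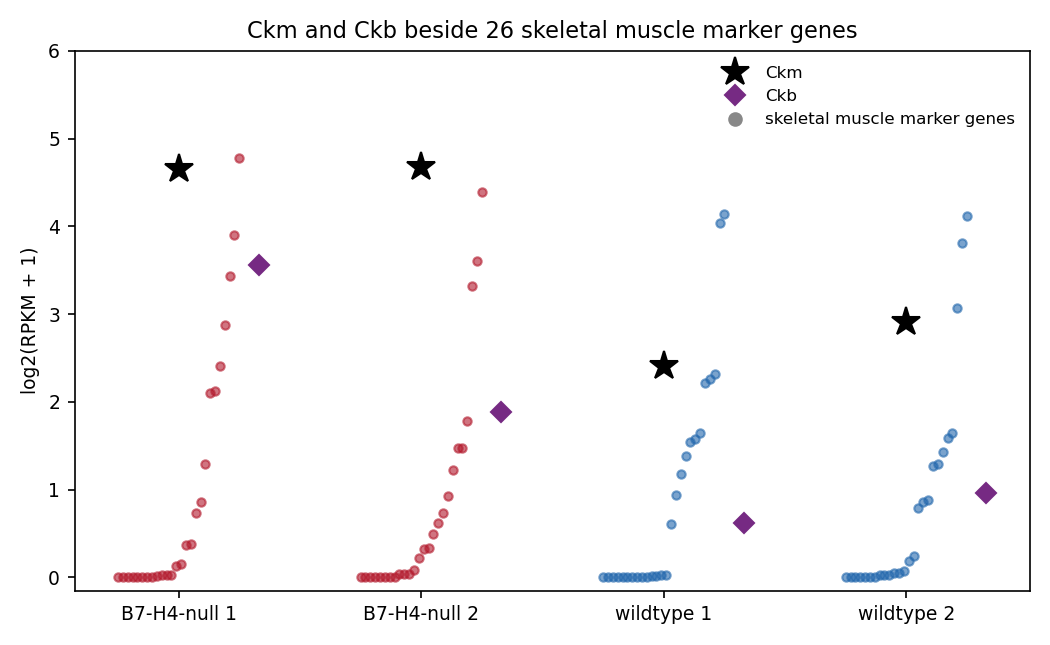
Log2(RPKM + 1) of Ckm (star), Ckb (diamond) and 26 skeletal muscle marker genes (small points, sorted by level) in each library, B7-H4-null left of wildtype. The star is higher in both B7-H4-null libraries, most marker genes lie near 0 in every library, and their sum is highest in B7-H4-null replicate 1, at 71.4 RPKM.

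Other marker lists differed in summed level between the genotypes beside Ckm and Ckb. Summed mature neutrophil markers (14 genes) stood at 8644 and 12529 RPKM in B7-H4-null, against 31779 and 24328 RPKM in wildtype. Of these, 13 of 14 were lower without overlap, beside 28% of all tested genes. At an unadjusted p under 0.05 (limma) 12 of the 14 were lower, beside 872 of all 12107 tested genes. After adjustment limma called 0 of the 14. Summed monocyte and macrophage markers (10 genes) stood at 1512 and 1666 RPKM in B7-H4-null, against 1058 and 1230 RPKM in wildtype. Ly6c2 made most of this sum, with 1201 and 1458 RPKM in B7-H4-null, against 843 and 1079 RPKM in wildtype. Vcam1 of the same list went the other way, with 12.6 and 1.12 RPKM in B7-H4-null, against 93.04 and 30.01 RPKM in wildtype. Summed B lineage markers (6 genes, Pax5 at 0) stood at 119.9 and 130.1 RPKM in B7-H4-null, against 57.7 and 56.2 RPKM in wildtype, nearly all from Ighm and Cd79b. Summed stroma and endothelium markers (8 genes) stood at 58.1 and 39.5 RPKM in B7-H4-null, against 27.7 and 30.1 RPKM in wildtype, nearly all from Pecam1 and Pdgfrb. Of 3 tested, only Pecam1 was higher without overlap, beside 16% of all tested genes. Pdgfrb overlapped, and 5 of the 8 stayed below 1 RPKM in all libraries. Among those 5, Cxcl12 went the other way, with 0.133 and 0.0387 RPKM in B7-H4-null, against 0.468 and 0.38 RPKM in wildtype. The part of these marker lists in the Ckm and Ckb results was not tested. The 3 sort markers summed to 217 and 215 RPKM in B7-H4-null, against 351 and 307 RPKM in wildtype.

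The library order of Ckb had a parallel in the summed level of 21 early response genes, which cells switch on within minutes of handling or stress. Their summed level was 14116 and 6573 RPKM in B7-H4-null, against 2623 and 3894 RPKM in wildtype, the same order of the 4 libraries as for Ckb. Single genes were split, with many that did not share this order. Fos did, with 2328 and 1526 RPKM in B7-H4-null, against 358 and 1038 RPKM in wildtype. Jun stood at 2621 and 982 RPKM in B7-H4-null, against 425 and 317 RPKM in wildtype, so its wildtype libraries were reversed. Of 20 tested, 18 were higher without overlap in B7-H4-null, beside 16% of all tested genes. At an unadjusted p under 0.05 (limma) 16 were higher, beside 612 of all 12107 tested genes, and 0 were called after adjustment. Nr4a1, the second nearest gene to Ckb in pattern, belongs to this list. The part of this response in the Ckb result was not tested. Summed erythroid markers stood at 4.19 and 1.55 RPKM in B7-H4-null, against 2.25 and 2.79 RPKM in wildtype. Summed T and NK markers stood at 21.7 and 39.6 RPKM in B7-H4-null, against 31.8 and 30.02 RPKM in wildtype. Summed osteoclast markers stood at 9.62 and 9.62 RPKM in B7-H4-null, against 13.95 and 13.3 RPKM in wildtype, and megakaryocyte markers at 29.1 and 16.2 RPKM in B7-H4-null, against 29.97 and 16.3 RPKM in wildtype.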

How the data were processed

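RNA-seq libraries of 4 sorted LSC samples, 2 per genotype, were compared. They followed the TruSeq RNA v2 protocol and were read on a HiSeq2500, per the labels' protocols. Reads were aligned with TopHat2 2.0.12 to GRCm38, per the submitters' processing notes. The sources used here do not give how reads were counted, nor the annotation and strand setting. The unit is not named there either. The authors deposited 1 table of 27179 Entrez gene IDs whose values were read as RPKM from the values themselves: the column sums differ (521931 to 558518), and each gene's low values are whole multiples of a step. Those steps gave the totals behind the scaling, the gene lengths and the reads, which came out whole for 14607 of 14608 genes above 0 in all libraries (tolerance 0.001 read plus 2e-07 of the reads). A RefSeq table (GRCm38.p6) gave symbols for 25275 IDs, GENCODE gave 18 more, and 1886 had none. Coordinates and promoters are those of RefSeq on GRCm38.p6, and motifs were searched in the 250 bases before each start.

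The 12107 genes that reached 1 RPKM in 2 or more libraries were tested with limma 3.58.1 (R 4.3.3) on log2(RPKM + 1). The model held genotype alone, with a trend of variance on the mean, and the two-sided p-values were adjusted by Benjamini-Hochberg over all tested genes, at 0.05. The pseudocount makes the change of genes at low RPKM look smaller. With 2 samples per group the smallest two-sided p of an exact permutation test is 0.333, so none was used. Since separate animals are not stated in the labels, the p-values speak only of the spread between these samples. Intervals are exact 95% binomial intervals of reads and, like the floor of 3 reads over a group, cover counting error only.

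The members and lists were chosen with earlier results of these data known. All members were named. Of each of 7 pathway lists, up to 4 genes with the smallest p were named, and of marker lists those at 0 or highest. The 3 genes nearest in pattern to each tested member were named, passing over gene models and pseudogenes, and the antisense gene of Ckm was added outside that rule because it shares exons. Satb1, Nr4a1, Cdca7 and Mcm2 were picked from the nearest genes, after their values were seen, to show an example each, and so was Vcam1 from its list. Tnnc2, Acta1 and Cxcl12 were named outside the rule for marker lists. Ak6 and Hbb-bt of the lists had no matching row. One marker gene of the lists is not reported here. Alternatives were other scalings (median-ratio and quantile), a pseudocount of 0.1, no filter or one at 5 RPKM, no trend, a replicate block, limma's voom on recovered reads with the recovered totals, and leaving out each library. Shares of reads replaced those of RPKM for the Ckm share.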

Additional observations from a re-analysis of the deposited data

How the results depend on the processing

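No pathway gene was called under any alternative run. The 12 calls among all genes became 0 with no filter on low values, 16 with voom on recovered reads and 0 to 56 when 1 library was left out (0 when either B7-H4-null library was left out, 29 without wildtype replicate 2 and 56 without wildtype replicate 1). With the replicate number as a block there were 21. The differences between same-numbered libraries, B7-H4-null against wildtype, had a correlation of 0.247. There are only 2 such pairs and the labels do not tie them, so whether they belong together is not known. The log2 difference of Ckm was 2.19 and that of Ckb 2.83 with voom, whose scale has no pseudocount of 1 RPKM. Leaving out 1 library gave 1.75 to 2.25 for Ckm, 1.09 to 2.77 for Ckb, −0.47 to 0.49 for Gamt, −0.53 to 0.70 for Gatm, 2.005 to 2.61 for the summed creatine kinases (log2 ratio 2.27 with all libraries) and −15.2 to 5.46 percentage points for the Ckm share. With a pseudocount of 0.1 Ckb was at 2.75. A filter at 5 RPKM left no value for Ckb and Gamt. Of 107 alternative values of Gamt, Gatm and the list medians, 97 moved by less than the replicate spread, and 6 of 84 list medians turned sign (other phosphotransfer kinases in 4 settings, mitochondrial nucleotide exchange without B7-H4-null replicate 2 and Slc6 transporters with no filter). Depth limits Ckmt1, Ckmt2 and Slc6a8, which had 0 to 18 reads per library.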
